A study of Mus musculus with 4 samples.

Results

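The 10 genes described here act in insulin signalling, glucose uptake or glycogen storage in skeletal muscle: Insr, Irs1, Irs2, Akt2, Tbc1d4, Tbc1d1, Prkaa2, Slc2a4, Hk2 and Gys1. They were chosen by name, and all 10 were found among 21728 protein-coding genes of chromosomes 1 to 19 and X in GENCODE M21 (mm10 coordinates). For each gene, the binding of CTCF was read from the peaks whose summit, the peak's highest point, lay between 50 kb before and 50 kb after the gene body. Chromatin immunoprecipitation with an antibody to CTCF, followed by sequencing (ChIP-seq), had been done on frozen gastrocnemius, the calf muscle, of adult female B6CASTF1/J hybrid mice aged 2 months. There were 4 libraries, 2 technical replicates of pool E and 2 of pool F, and each pool combined 2 tissue samples. The pools shared strain, sex, age, tissue and antibody target, and no treatment or altered allele was named for either. Each pool mixes its tissue samples, the hybrid was read against the mm10 genome alone, and a whole muscle holds more than fibres. A site bound in fewer cells and a site bound less firmly in each cell cannot be told apart in such material, and peak lists hold no expression values against which to check the tissue.

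In muscle, insulin binds its receptor on the fibre surface, the receptor phosphorylates adaptor proteins, and these switch on the kinase AKT2. AKT2 inactivates a pair of Rab GTPase-activating proteins, TBC1D4 and TBC1D1, which releases vesicles that bring the glucose transporter GLUT4 to the surface; contraction reaches the same step through AMP-activated protein kinase. CTCF recognises an extended, directional DNA motif through its zinc fingers; where cohesin stalls at a pair of such sites facing each other, the DNA between them is held in a loop.

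The authors' conservative list, which rests on both pools, held 42163 peaks, and 81 of their summits fell in the 10 windows. These were the 81 of 182 ranked candidates in the windows with an irreproducible discovery rate (IDR) of 0.05 or less (44.5%), against 41.1% of all ranked candidates. A low IDR marks a peak that ranks consistently high in both inputs of a list. A combined list from both pools held 49649 peaks, the list made within pool E 50899 and the list made within pool F 33784. Strength below is the authors' own score of a peak, on a scale they did not state; over the conservative list it had a median of 246 (quartiles 116 and 432). Read depth was unknown, since the lists give no counts. Because the lists merge technical replicates, there is no replicate error beside any value, and no test was made. Shares carry 95% Wilson intervals, which cover counting error only and take sites as independent.

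The sequences at the strongest motif-bearing summit of each window are shown first, since the motif is what CTCF reads and its direction matters for looping. They were read from the mm10 genome 5′ to 3′ on the strand of the match, with the 14-base CTCF core motif in capitals and 20 bases on each side. A match had at most 2 mismatches to the core motif, searched on both strands, and had its centre no more than 50 bp from the summit. Windows displaced by 2000 bp held such a match in 3.17% of cases.
Insr, 99483 bp after the start, chr8:3180110-3180163, plus strand: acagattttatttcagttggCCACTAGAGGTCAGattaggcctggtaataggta
Irs1, 2591 bp after the start, chr1:82288795-82288848, minus strand: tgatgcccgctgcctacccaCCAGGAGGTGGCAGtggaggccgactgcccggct
Irs2, 1281 bp after the start, chr8:11007149-11007202, minus strand: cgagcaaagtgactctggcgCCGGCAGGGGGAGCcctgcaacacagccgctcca
Akt2, 59632 bp after the start, chr7:27651159-27651212, plus strand: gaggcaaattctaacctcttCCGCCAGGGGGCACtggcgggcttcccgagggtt
Tbc1d4, 44471 bp before the start, chr14:101653640-101653693, minus strand: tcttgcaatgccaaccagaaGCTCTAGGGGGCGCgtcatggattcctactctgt
Tbc1d1, 226327 bp after the start, chr5:64382606-64382659, plus strand: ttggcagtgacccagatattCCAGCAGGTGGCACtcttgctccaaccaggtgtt
Prkaa2, 42203 bp before the start, chr4:105152073-105152126, plus strand: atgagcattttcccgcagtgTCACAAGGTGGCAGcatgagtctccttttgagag
Slc2a4, 898 bp before the start, chr11:69949059-69949112, minus strand: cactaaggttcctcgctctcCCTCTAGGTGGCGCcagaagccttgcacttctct
Hk2, 71537 bp after the start, chr6:82702880-82702933, minus strand: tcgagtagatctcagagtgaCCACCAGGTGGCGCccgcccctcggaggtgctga
Gys1, 29606 bp before the start, chr7:45405209-45405262, plus strand: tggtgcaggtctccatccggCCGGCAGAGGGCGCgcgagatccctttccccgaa
The cores beside Tbc1d1 and Hk2 matched the motif exactly. Those of Insr, Irs1, Akt2, Slc2a4 and Gys1 carried 1 mismatch, and those of Irs2, Tbc1d4 and Prkaa2 carried 2.

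Every gene of the 10 had a conservative summit within 5000 bp of its start (95% interval 72.2% to 100%), against 37.4% of all protein-coding genes. Leaving olfactory, vomeronasal and trace amine receptor genes out of the comparison raised that background to 40.0%. Within 1000 bp of the start, 6 of the 10 had a summit (31.3% to 83.2%), against 20.6% of protein-coding genes. The median distance from the start to the nearest summit was 716 bp for the 10 genes and 9934 bp for all protein-coding genes. Strengths at these nearest summits spanned 90.8 at Insr to 582 at Slc2a4, so presence near the start was shared and strength was not. In the gene body, 9 of the 10 had a summit, against 45.8% of protein-coding genes; the exception was Slc2a4, whose body of 5650 bp is the shortest of the 10. The median body was 53873 bp long for the 10 genes and 17429 bp for all protein-coding genes, so the counts do not compare bodies of like length. Coding exons of the gene itself held a summit in 5 of the 10 (Irs1, Irs2, Tbc1d4, Prkaa2 and Gys1), against 5.69% of protein-coding genes. These coding summits lay 99 to 3299 bp after the start, so they are among the start summits already counted. The amount of coding sequence near the start was not compared between genes.

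**Figure D1:**
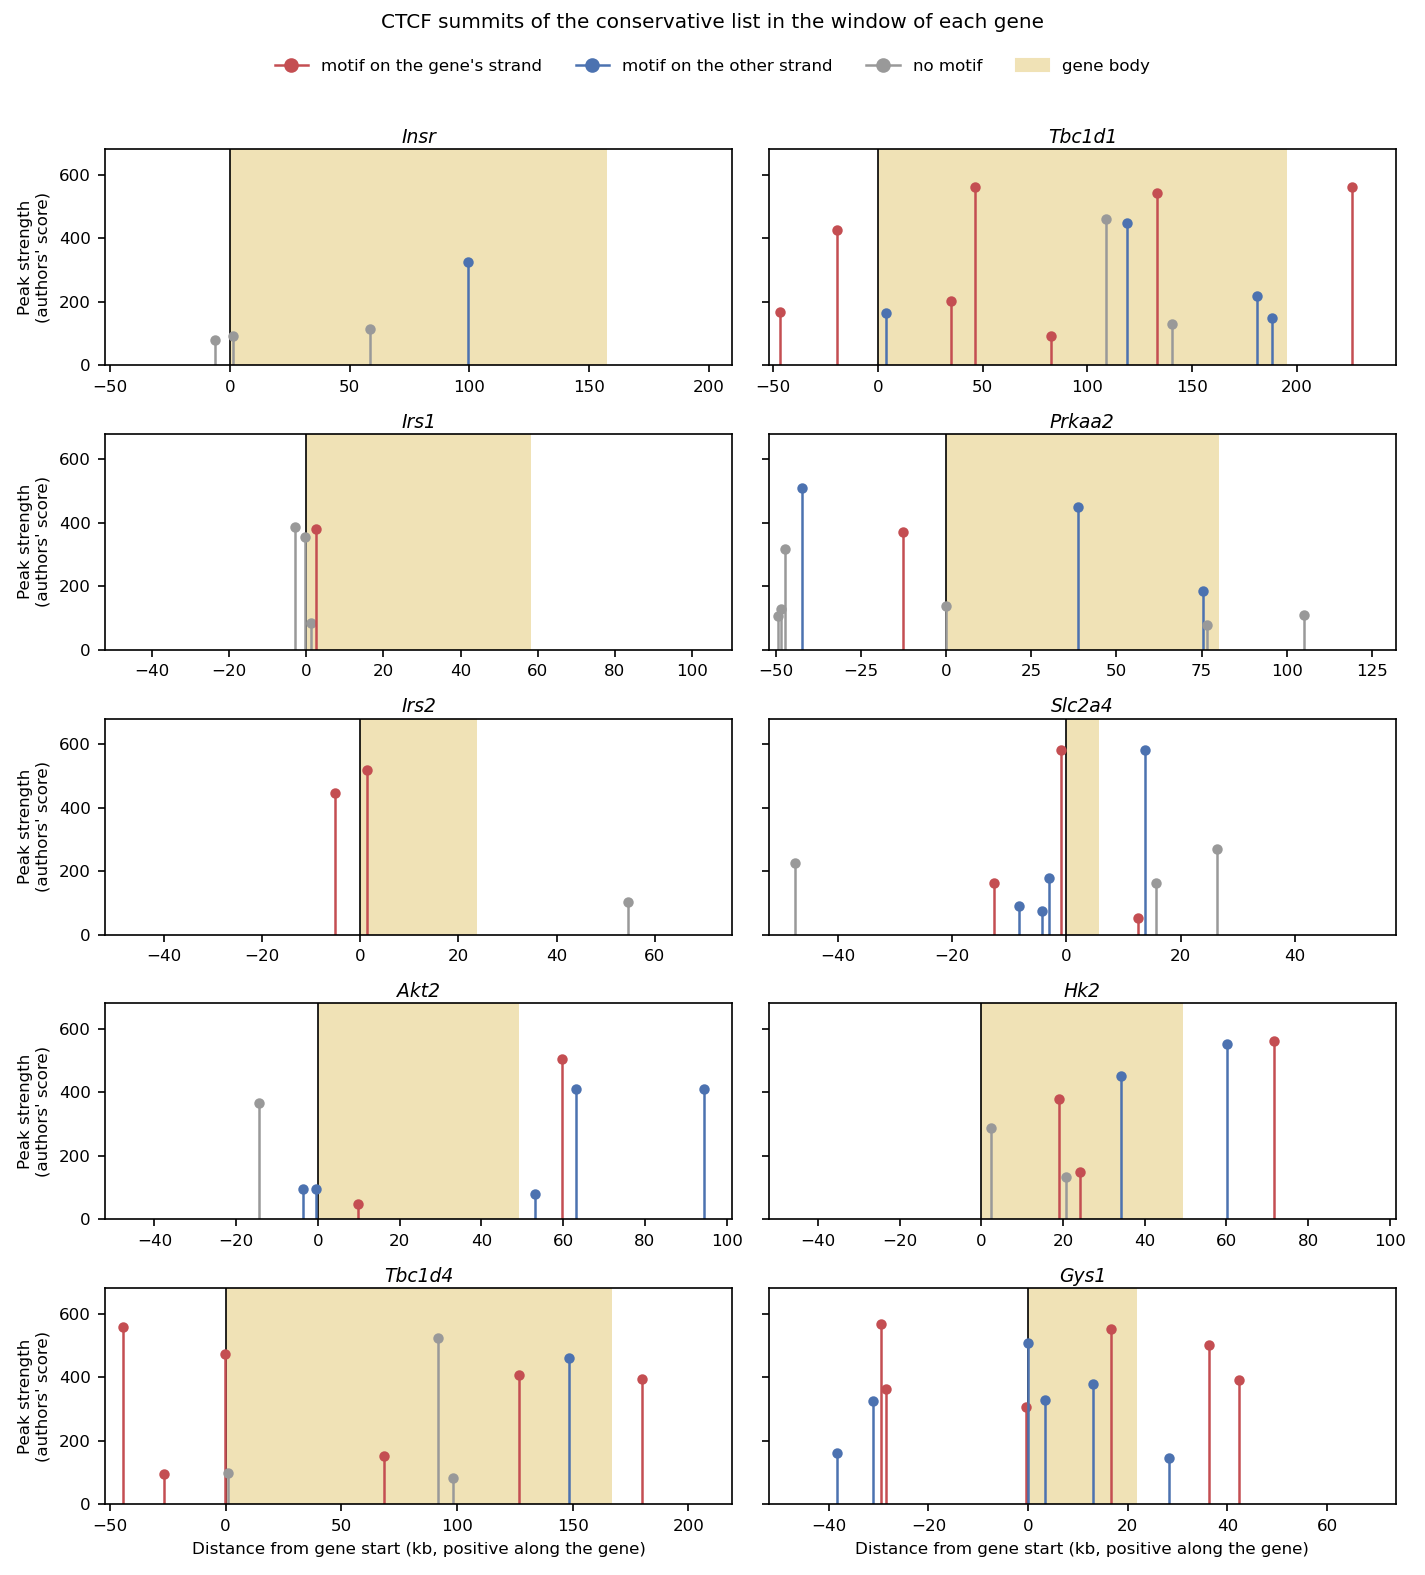
Each panel plots the conservative summits of 1 gene by distance from the gene start (kb, positive along the gene) and by strength (the authors' score), with the gene body shaded and the colour giving the strand of the CTCF motif relative to the gene. Summits cluster at the Irs1 start, spread along the whole of Tbc1d1 (13 summits), and reach 582 beside the Slc2a4 start.

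The receptor and its adaptors had the fewest summits. Insr, which encodes the insulin receptor (chromosome 8, 3122061 to 3279617, minus strand), had 4 summits in a window of 257557 bp. The summit nearest to its start lay in an intron 1330 bp after it, with a strength of 90.8 and no motif; its strength was 71.96 in the input that matches pool E and 17.3 in the input that matches pool F. The pool F list had no peak there, and its nearest one lay at -51277 bp from the start. The strongest summit of the window, 325, lay 99483 bp into the gene in an exon of a non-coding transcript and was the single motif-bearing site of the 4. At the start itself, a ranked candidate 12 bp after it had a strength of 25.1 and an IDR of 0.21, outside the threshold.

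Irs1 encodes an adaptor that the receptor phosphorylates (chromosome 1, 82233101 to 82291416, minus strand). Its 4 summits all lay within 5000 bp of the start, at -2895, -329, +1149 and +2591 bp, and the longest stretch of its window without a summit was 105724 bp. Strengths were 388 at -2895 bp, 354 at -329 bp, 85.6 at +1149 bp and 381 at +2591 bp, so 3 of the 4 were of like strength and 1 was weak. In the input that matches pool E these 4 summits had strengths of 264, 225, 70.03 and 243, and in the input that matches pool F 126, 132, 18.4 and 141. The weak summit was absent from the pool F list, while the others had partners in both pools. The last 2 sites fell in the coding sequence, at codons 76 and 557 of the single coding exon. A motif stood only under the +2591 bp summit, whose core is printed above.

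Irs2, the adaptor with the wider role in liver and beta cells (chromosome 8, 10984681 to 11008458, minus strand), had 3 summits, the fewest of the 10. A summit of strength 519 lay 1281 bp after the start, at codon 418 of the coding sequence, with 18 CpG dinucleotides in the 201 bp centred on it. Its strength was 327 in the pool E input and 195 in the pool F input, yet the thresholded pool E list lacked it. In the ranked pool E list the same site had a strength of 327 and an IDR of 0.054, just outside the threshold. The summit at -5120 bp had a strength of 446, lay in an intron of the non-coding gene 9530052E02Rik and had partners in both pools.

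Akt2, the kinase isoform that insulin uses for glucose uptake (chromosome 7, 27591552 to 27640826, plus strand), had weak summits near its start and in the body, and stronger ones farther out on both sides. The summit 534 bp before the start had a strength of 94.3, of which the pool E input showed 76.0 and the pool F input 19.03. Farther upstream, at -14449 bp, lay a summit of strength 366 without a motif. The only summit in the gene body, at 9862 bp, was the weakest of all 81, at 49.0. Past the gene end, a weak summit of strength 78.9 lay 3884 bp downstream. Summits of strength 505, 411 and 410 lay 10358, 13917 and 45087 bp downstream, the first at the start of the non-coding gene Gm38973 and the second at that of Ttc9b. In the window, 7 summits had a motif, including the 4 downstream ones.

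The Rab GTPase-activating proteins had the longest genes and the most summits in their bodies. Tbc1d4, also known as AS160 (chromosome 14, 101442360 to 101609191, minus strand), had 10 summits, 6 of them in the body. The summit 114 bp before its start had a strength of 473, with 296 in the pool E input and 178 in the pool F input. A second one 998 bp after the start fell at codon 90 of the coding sequence, had a strength of 99.2, 22 CpG in 201 bp and no motif, and had a partner in pool E but not in pool F. The strongest summit of the window, 557, lay -44471 bp from the start and 305 bp from the start of Uchl3. Within the introns, summits of strength 524, 407 and 459 lay at 91663, 126716 and 148250 bp, so the body held both strong and weak sites.

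Tbc1d1, the relative of Tbc1d4 that contraction also targets (chromosome 5, 64156305 to 64351486, plus strand), had 13 summits, the most of the 10, in a window of 295182 bp. Its nearest summit to the gene start was the farthest of the 10, at 3635 bp, in an untranslated exon, with a strength of 164. That summit lay only 120 bp from the start of another annotated Tbc1d1 transcript. In the body lay 10 summits, of which those at 46193 and 133139 bp reached 560 and 542. A summit of 562 with an exact core lay 31146 bp past the gene end, 822 bp from the start of the non-coding gene Gm43837. The remaining strengths ran down to 92.3, and 11 of the 13 had a motif.

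Prkaa2 encodes the catalytic α2 subunit of AMP-activated protein kinase, the main one in muscle (chromosome 4, 105029874 to 105109890, minus strand). It had 10 summits, of which 4 had a motif. The summit nearest to its start lay 99 bp after it, at codon 3, with a strength of 139, no motif and 29 CpG in 201 bp, the most of the 81. Its strength was 101.4 in the pool E input and 35.0 in the pool F input. A pair of exact cores flanked it, at -12792 bp with a strength of 372 and at 38681 bp with a strength of 450, on opposite strands. A further 3 summits belonged to the start of the neighbouring Plpp3 or the first part of its body, at -47233, -48443 and -49501 bp.

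Slc2a4 encodes GLUT4, the insulin-responsive glucose transporter (chromosome 11, 69942539 to 69948188, minus strand). The summit 898 bp before its start was the strongest of the 81, at 582, above 97.0% of the conservative list. It measured 342 in the pool E input and 239 in the pool F input, and all 4 lists held it within 10 bp of the same place. A second summit of nearly the same strength, 581, lay 8212 bp past the gene end with an exact core. The motifs of this pair point toward each other across the gene, the start-side one on the minus strand and the end-side one on the plus strand. On the end side, a weak summit of strength 52.4 at the start of Ybx2 lay between the gene and this site. The end-side sequence, to be read against the start-side one above, is:
Slc2a4, 13861 bp after the start, chr11:69934302-69934355, plus strand: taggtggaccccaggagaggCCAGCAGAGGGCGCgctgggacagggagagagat
The other summits of the window included those within 1000 bp of the starts of Phf23 (strength 227) and Eif5a (271), and 12 protein-coding starts lay in this window of 105650 bp.

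Hk2 encodes hexokinase II, which traps glucose in the fibre by phosphorylation (chromosome 6, 82725025 to 82774454, minus strand). It was the only one of the 10 with no summit before its start: 5 of its 7 summits lay in the body and 2 past the end. The nearest to the start lay 2356 bp into the gene in an intron, with a strength of 286 and no motif, and had 197 in the pool E input and 89.8 in the pool F input. The start of another annotated Hk2 transcript lay 890 bp from it. Exact cores stood under 3 summits, at 18891, 34109 and 71537 bp, with strengths of 379, 452 and 562, the most exact cores in any of the windows. The RefSeq promoter window of Hk2 held a core match with 2 mismatches, but no conservative summit lay there; a ranked candidate at -72 bp had a strength of 14.2 and an IDR of 0.61.

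Gys1 encodes muscle glycogen synthase (chromosome 7, 45434844 to 45456619, plus strand). Its window of 121776 bp held 12 summits, all 12 with a motif, and 11 protein-coding starts. A pair of summits stood at its start, at -468 bp with a strength of 304 and at -2 bp with a strength of 508, both inside Ruvbl2, a gene on the other strand whose body overlaps the Gys1 start. Another summit, at 3299 bp, had a strength of 327 and lay at codon 114 of the Gys1 coding sequence and 47 bp from the start of Ruvbl2. The strongest of the window, 566, lay -29606 bp from the start and 415 bp from the start of Kcna7, a potassium channel gene. Motif strands at the pair differed, plus at -468 bp and minus at -2 bp. The sequence at -2 bp is shown with those at the nearest motif-bearing summits of Tbc1d4 and Akt2, to set 3 motif-bearing summits within 1000 bp of a start side by side:
Gys1, 2 bp before the start, chr7:45434793-45434846, minus strand: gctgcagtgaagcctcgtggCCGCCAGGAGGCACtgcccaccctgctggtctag
Tbc1d4, 114 bp before the start, chr14:101609281-101609334, minus strand: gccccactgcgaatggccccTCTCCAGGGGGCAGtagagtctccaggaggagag
Akt2, 534 bp before the start, chr7:27590993-27591046, minus strand: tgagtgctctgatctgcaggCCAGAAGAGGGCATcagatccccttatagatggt
Each of these cores has 2 mismatches, and their strengths were 508, 473 and 94.3.

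**Figure D2:**
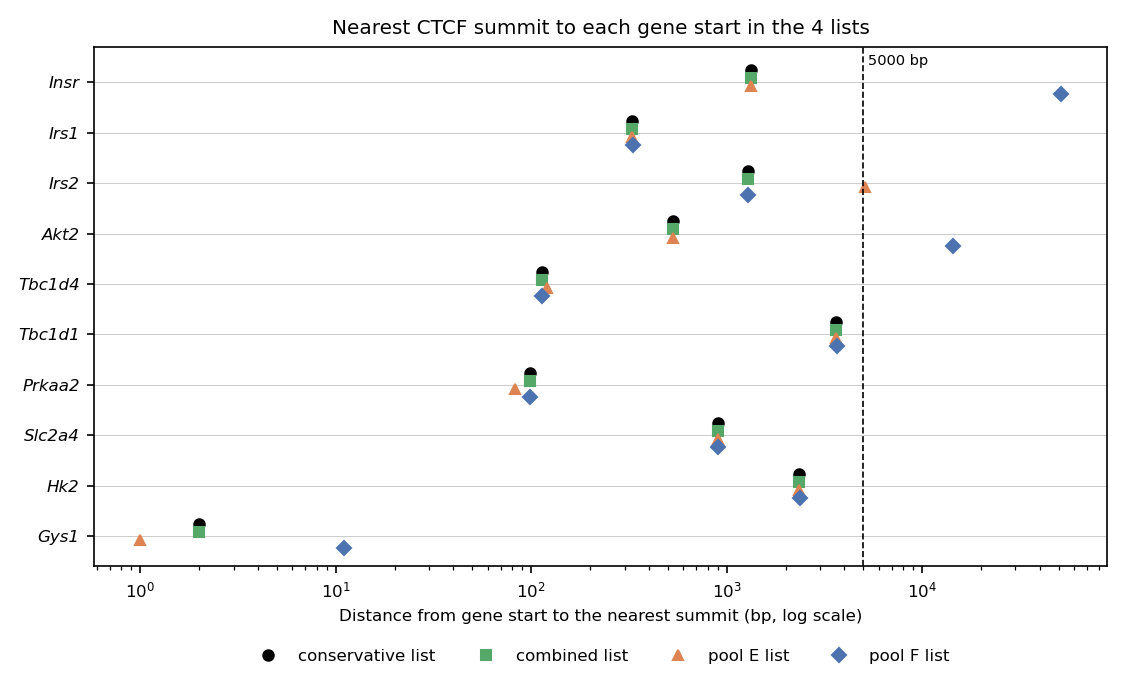
Distance in bp (log scale) from each gene start to its nearest summit in the 4 thresholded lists; a distance of 0, for Gys1 in pool E, is drawn at 1, and the dashed line marks 5000 bp. Points of 1 gene lie together except for Irs2 in pool E (-5113 bp) and for Insr and Akt2 in pool F (-51277 and -14455 bp).

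The presence of a start summit differed between the thresholded lists of pool E and pool F for 3 of the 10 genes. The ranked lists still held a candidate at each of these sites, outside the IDR threshold. Its IDR was 0.054 for Irs2 in pool E, at a strength of 327. In pool F it was 0.60 for both Insr and Akt2, at strengths of 17.3 and 19.03. In the combined list all 10 had one within 5000 bp, where 42.6% of protein-coding genes did. Pool E gave one for 9, all but Irs2, against 43.3% of protein-coding genes, and pool F for 8, all but Insr and Akt2, against 31.5%. The share of protein-coding genes whose start summit differed between these pool lists was not counted. The count of 3 in 10 therefore has no background, and whether it is high or low cannot be said. Of the 81 conservative peaks, 69 had a partner in the pool E list at a reciprocal overlap of 50% (85.2%, 75.9% to 91.3%), against 87.8% of the whole list. In the pool F list 56 had a partner (69.1%, 58.4% to 78.1%), against 66.2% of the whole list. Both shares were near their background. Of the 81, 14 had no overlap at all in pool F, where 21.1% of the whole list had none. These 14 were weak, with strengths of 49.0 to 113. In the weakest 10% of the whole list, 93.7% had no overlap in pool F.

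The density of summits differed between the genes. Summits per 100 kb of window were 1.55 for Insr, 2.42 for Irs2, 2.53 for Irs1, 3.75 for Tbc1d4, 4.40 for Tbc1d1, 4.68 for Hk2, 5.36 for Akt2, 5.56 for Prkaa2, 9.47 for Slc2a4 and 9.85 for Gys1. Their median was 4.54, against 2.88 for the windows of all protein-coding genes, and 7 of the 10 lay above that median. Slc2a4 and Gys1 stood at percentiles 97.2 and 98.0, and they also had the most protein-coding starts in their windows, 12 and 11 against a median of 3 for all genes. The part of gene crowding in their density was not tested. Insr, with its own start as the only protein-coding one in its window, stood at percentile 28.7.

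**Figure D3:**
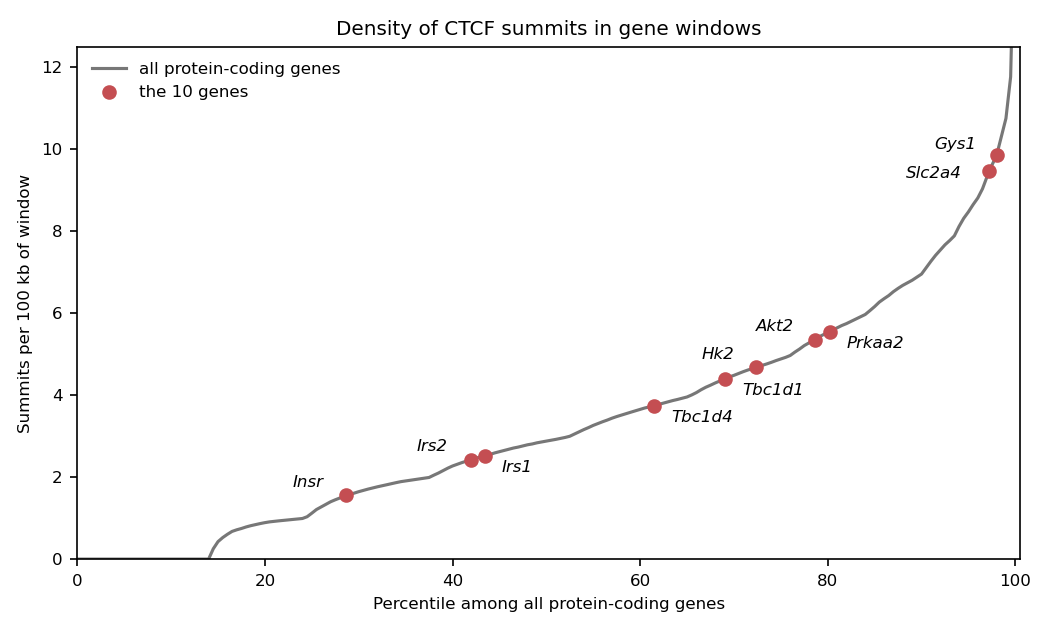
Summits of the conservative list per 100 kb of window against the percentile among all protein-coding genes, whose distribution is the grey line; points are the 10 genes. Insr, Irs2 and Irs1 lie below the middle at 1.55 to 2.53, and Slc2a4 and Gys1 near the top at 9.47 and 9.85.

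A motif lay under 57 of the 81 summits (70.4%, 59.7% to 79.2%), against 77.6% of all conservative summits. The best match was exact at 7 summits, had 1 mismatch at 25, 2 at 25, 3 at 17 and 4 at 7. A 19-base weight matrix, which scores each base by its frequency at CTCF sites, matched 61 of the 81 (75.3%). Its threshold was set on displaced windows, of which 5.17% matched. Some sites described here as without a motif matched it, among them Insr at 1330 bp, Irs1 at -2895 bp and Akt2 at -14449 bp. Others with a core match did not, such as Tbc1d1 at 188208 bp. Motif-bearing summits had a median strength of 379, against 130 for the 24 without a motif; over the whole list these medians were 289 and 146. Near the starts, 12 of 19 summits had a motif (63.2%, 41.0% to 80.9%), close to the 64.0% of all summits within 5000 bp of a protein-coding start. The 19 had a median of 8 CpG in 201 bp, against 3 for the other 62, with the highest counts at the motif-free sites of Prkaa2 (29), Irs1 (24) and Tbc1d4 (22). The part of CpG content in these peaks was not tested. In the gene bodies, 12 of 23 motifs lay on the strand of the gene. Of 12 RefSeq promoter windows (GRCm38.p6, 250 bases before to 50 after the start) that matched 8 of the 10 genes, 3 held a core match, those of Hk2, Gys1 and Tbc1d4, against 14.4% of 32619 promoters of the same length.

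A run of 12 bases, CCAGAAGAGGGC, opened the core at 11 of the 57 motif-bearing summits, in 6 of the 10 windows; it was picked after the sequences were seen. By window, 1 of these sites belonged to Akt2, 1 to Tbc1d4, 2 to Tbc1d1, 3 to Slc2a4, 1 to Hk2 and 3 to Gys1, and the Hk2 site alone lay in the body of the gene. All 11 lay in sequence that the genome marks as mostly repeated, with a median of 72.1% of the 201 bp masked, against 12.2% at the other motif-bearing summits. The whole list showed the same: 82.7% of summits with this opening lay in mostly masked sequence, at a median of 72.6% masked. Of its other motif-bearing summits, 8.14% did, at a median of 9.95%. Mobile repeats that carry CTCF sites are a known feature of rodent genomes; the class of these repeats was not analysed here. The bases beside the core were much alike at some sites, such as Tbc1d1 at -46930 bp and Gys1 at -38453 bp, and differed at others. The Akt2 sequence at -534 bp, printed above, and 5 others show both:
Tbc1d1, 46930 bp before the start, chr5:64109362-64109415, plus strand: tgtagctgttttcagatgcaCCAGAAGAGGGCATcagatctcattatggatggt
Gys1, 38453 bp before the start, chr7:45396390-45396443, minus strand: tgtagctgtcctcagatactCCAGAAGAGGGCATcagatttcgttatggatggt
Slc2a4, 4297 bp before the start, chr11:69952444-69952497, plus strand: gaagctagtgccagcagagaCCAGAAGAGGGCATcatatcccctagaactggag
Tbc1d1, 19792 bp before the start, chr5:64136500-64136553, plus strand: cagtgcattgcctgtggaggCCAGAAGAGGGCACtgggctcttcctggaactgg
Hk2, 24196 bp after the start, chr6:82750223-82750276, minus strand: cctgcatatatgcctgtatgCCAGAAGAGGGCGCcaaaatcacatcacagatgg
Over the whole list, 14.0% of motif-bearing summits had this opening, against 19.3% in the windows. These sites were weaker than other motif sites, with a median strength of 151 against 408 in the windows and 129 against 327 in the whole list. The weak start summit of Akt2 and the Slc2a4 summit at -4297 bp were of this kind, while the main start summits of Slc2a4, Gys1 and Tbc1d4 were not.

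Strength was higher in the input that matches pool E than in that of pool F at all 81 summits, as at 99.9% of the whole list. The log2 ratio of the inputs had a median of 0.94 in the windows and 1.03 in the whole list, and it varied with strength. By 10 classes of strength, the median over the list was 1.25 in the weakest class, 1.37 in the third, from which it fell in each later class, and 0.50 in the strongest. The pair at the Gys1 start lay below the 5th percentile of their classes. At -468 bp the strengths were 163 and 148, a log2 ratio of 0.14, and at -2 bp they were 268 and 235, a ratio of 0.19. Of 42163 peaks, 75 had a lower ratio than the first and 112 a lower ratio than the second. The Gys1 summit at 3299 bp, with 228 and 104, had a ratio of 1.13. At the high end stood weak sites: Hk2 at 20669 bp (2.13), Insr at 1330 bp (2.05), Akt2 at -534 bp (2.00) and Irs1 at 1149 bp (1.93). The lists do not give the depth of either pool, so the ratios compare sites and not amounts of CTCF.

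**Figure D4:**
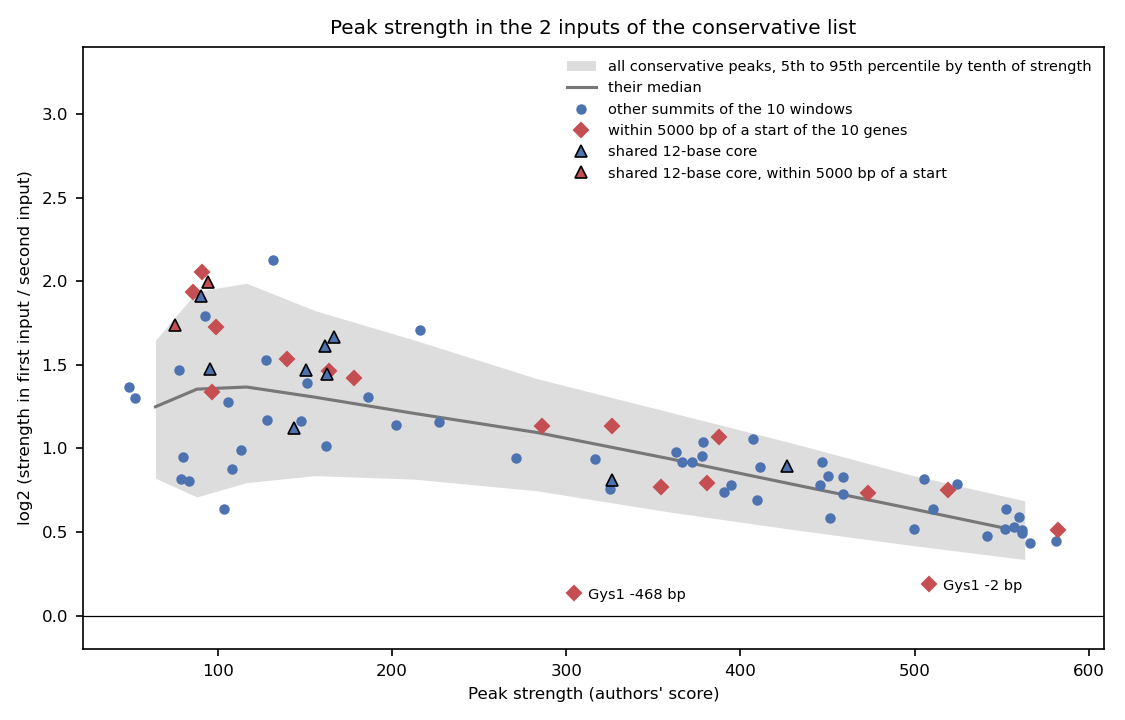
log2 ratio of the strength in the first input (matching pool E) to that in the second (matching pool F) against peak strength for the 81 summits; the band and line give the 5th to 95th percentile and the median of the whole list in 10 classes of strength, and triangles mark the shared 12-base core. The Gys1 pair at -468 and -2 bp sits at 0.14 and 0.19, below the band, and ratios reach 2.13 among weak peaks.

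No gene of the 10 lay between a plus-strand motif on its left and a minus-strand motif on its right, the convergent arrangement of loop anchors, when the nearest motif-bearing summit within 50 kb of the body was taken on each side; 12.6% of protein-coding genes did. The 2 motifs pointed the same way for Akt2, Tbc1d4, Tbc1d1, Slc2a4 and Gys1, against 22.3% of protein-coding genes. The other 5 genes lacked a motif-bearing summit on at least 1 side, near the 53.1% of protein-coding genes that did. This count depended on which sites entered. When only peaks above the list's median strength were used, or pool F, the Ybx2 summit of strength 52.4 dropped out and Slc2a4 had convergent flanks, at sites whose strengths in the conservative list were 581 and 582. With at most 1 mismatch allowed both Slc2a4 and Gys1 had them. Looping itself was not measured.

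Among 77 other genes of the pathway, listed by role, 47 had a summit within 5000 bp of the start (61.0%, 49.9% to 71.2%). Of all protein-coding genes, 37.4% did. The median distance to the nearest summit was 2344 bp for the 77 genes. Inhibitors of the pathway had one in 7 of 8 cases, among them Socs3 with a strength of 531 at -17 bp and Socs1 with 523 at -1002 bp. Subunits and activators of AMP-activated protein kinase had one in 8 of 10, and glycogen genes in 9 of 15. Vesicle traffic genes had one in 5 of 13 and phosphoinositide kinases and AKT in 5 of 11, near the background of all protein-coding genes. Receptor and adaptor genes had one in 6 of 9, other glucose transporters and hexokinases in 4 of 5, and transcription targets in 3 of 6. The 3 strongest start summits belonged to Stk11, which encodes the AMPK-activating kinase LKB1 (600 at -1095 bp), Stxbp3, a regulator of vesicle fusion (579 at -175 bp), and Cbl, a ubiquitin ligase (573 at -209 bp).

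Of the close relatives given here, 7 had a start summit too and Hk3 did not. Akt1 had a strongest start summit of 344 at -592 bp, against 96.5 at -3611 bp for Akt2, whose nearest one had 94.3 at -534 bp. Prkaa1, the other catalytic subunit gene, had one of 275 at -172 bp, against 139 at 99 bp for Prkaa2. The transporter Slc2a1 had one of 133 at -134 bp and Slc2a3 one of 467 at -2975 bp, both weaker than the 582 beside Slc2a4. Hk1 had one of 123 at -1214 bp, and Hk3 had none, with 9346 bp to the nearest. The liver glycogen synthase gene Gys2 had one of 221 at -4321 bp, against 508 at -2 bp for Gys1. Igf1r, the receptor most like Insr, had a strength of 570 at -1749 bp against 90.8 at Insr.

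**Figure D5:**
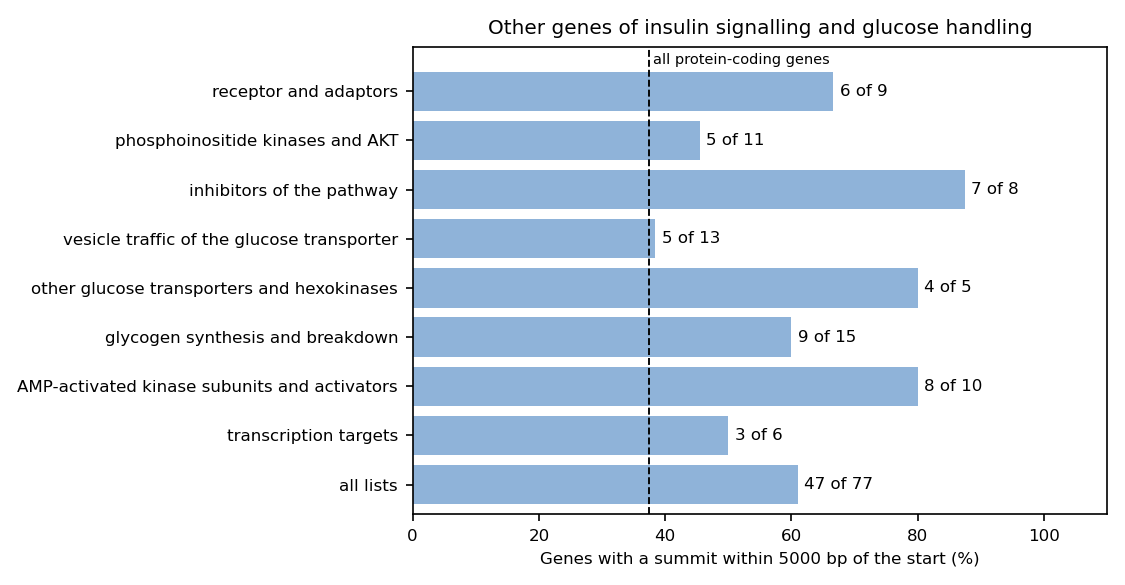
Share of the other pathway genes with a conservative summit within 5000 bp of the start (%), by role, with counts beside the bars; the dashed line is the share of all protein-coding genes, 37.4%. Shares run from 5 of 13 vesicle traffic genes to 7 of 8 inhibitors.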

How the data were processed

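CTCF ChIP-seq peaks from pools E and F were analysed (4 libraries). Per the deposited sample notes, each pool's technical replicates entered 1 alignment, and both pools used 1 control alignment. Aligner, peak caller and versions: not given in the sources used here. The authors deposited 4 thresholded lists and 4 ranked lists on mm10. Peak strength is a score the authors deposited, on an unstated scale. IDR was computed from the −log10 values that the authors deposited in the ranked lists, and peaks at 0.05 or less make up the thresholded lists. Which pool each input of the conservative list matches was read from equal strengths.

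Every summit in a window was counted, with Python 3.11.15 and pandas 2.3.3; the motif search was tested on simulated data. The 10 genes, the 77 other genes, windows and lists were chosen with earlier results of these data known. All 10 genes were named, with their strongest, start-nearest and body summits; of the other genes, the 3 strongest and the relatives were named (not all are reported here), and Socs1 and Socs3 were added after their values were seen. Alternatives varied the list, start window, flank, motif, overlap and IDR threshold.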

Additional observations from a re-analysis of the deposited data

How the results depend on the processing

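Of the values of the main results under alternatives, 42 stayed close to the reported ones (shares within their 95% interval, other values within 1.5 times) and 19 did not. Among peaks above the list's median strength, 6 of the 10 genes (not Insr, Akt2, Tbc1d1 and Prkaa2) and 23 of the 77 other pathway genes had a start summit, against 20.5% of protein-coding genes; the windows held 44 summits, 81.8% with a motif, at a median of 2.24 per 100 kb, against 1.49 for all protein-coding genes. Within 1000 bp of the start, 6 of the 10 and 29 of the other genes had one, against 20.6%. With 100 kb on each side there were 125 summits. At most 1 mismatch gave a motif share of 39.5% and at most 3 gave 91.4%, where displaced windows held 0.41% and 18.6%. Convergent flanks were found for 1 gene in pool E (Gys1), 1 in pool F (Slc2a4), 1 among peaks above the median strength (Slc2a4), 1 with 100 kb flanks (Hk2) and 2 with at most 1 mismatch (Slc2a4 and Gys1); the cause was not tested. An overlap of 1 bp raised the partners in pool F to 82.7% and in pool E to 93.8%; a reciprocal overlap of 80% lowered them to 4.94% and 66.7%. At an IDR of 0.01, Insr alone lost its start summit. No replicate could be left out and no paired analysis was possible because every list merges the technical replicates and no result comes from a test. Depth was unknown.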

Other observations

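Some of the strongest summits beside the 10 genes were absent from the pool E list, the longest of the 4. Of the 81 conservative peaks, 5 had no overlap with any pool E peak, and 4 of these were strong: Irs2 at 1281 bp (strength 519), Gys1 at 16629 bp (553), Tbc1d1 at 46193 bp (560) and Slc2a4 at 13861 bp (581). The fifth, Akt2 at 9862 bp, was the weakest of the 81. In the ranked pool E list the 4 strong sites were present with strengths of 327 to 337 and IDR values of 0.054, 0.60, 0.064 and 0.073, outside the threshold. Over the whole conservative list, 27.2% of the strongest 10% had no overlap with a pool E peak, against 3.99% of all peaks. In pool F 2.28% of the strongest 10% had none. Of the 81 summits, 10 were in that strongest 10%, among them the Gys1, Tbc1d1 and Slc2a4 sites named here. The Irs2 site fell in the next class of strength, where 3.39% of the whole list had no overlap in pool E.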
